A study of Homo sapiens with 24 samples.

Results

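The transcripts of 7 genes that make, take up or use cysteine and glutathione were followed in 4 Hodgkin lymphoma cell lines after a short exposure to AEZS-136. The genes were CTH, CBS, SLC7A11, GCLC, GCLM, GSS and CHAC1, and every probe that the annotation of the array assigns to one of these symbols was taken. This gave 11 probes out of 44053 used, and 10 of them, at least 1 for each of the 7 genes, were detected on 3 or more arrays and entered the tests, as did 24578 probes of 13406 genes over the whole array.

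Cysteine is the scarce building block of glutathione, the main thiol with which cells remove peroxides. Cells obtain it by transsulfuration, in which CBS joins homocysteine to serine and CTH then cuts the product to release cysteine, or by importing cystine through the exchanger formed by SLC7A11 and SLC3A2. Glutamate-cysteine ligase, made of the catalytic subunit GCLC and the modifier subunit GCLM, performs the first and limiting step of glutathione synthesis, GSS adds glycine in the final step, and CHAC1 breaks glutathione down inside the cell. The study followed reactive oxygen species after the compound, which is the process these genes bear on.

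KM-H2, L-428, L-540 and also SUP-HD1 are established lines grown from Hodgkin lymphoma, so each stands for the tumor cells alone without the surrounding tissue. Where 4 values follow each other, they are in this order. Each was exposed for 2 h to 10 µM AEZS-136, described by the study as a dual inhibitor of the PI3K and ERK pathways, or served as the control, which per the methods received the DMSO vehicle. All 8 groups had 3 Illumina bead arrays of total RNA, 24 in all. By the study's own grouping, KM-H2 together with L-428 resisted cell death from the compound, and L-540 together with SUP-HD1 were sensitive to it. Whether the 3 arrays of a group were separate cultures is not given in the sources used here for these arrays, although legends of the study call its array values of a later time point independent experiments. The p-values then cover only the variation among these arrays, which may be technical. In bulk RNA a smaller number of expressing cells and less transcript per cell cannot be told apart.

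Array medians of the raw signal lay between 96.0 and 127.9, with 16876 to 19524 probes detected per array at a detection p under 0.05. Of 8 Hodgkin cell markers, 7, 7, 6 and 7 were detected on every array of the 4 lines, while TNFRSF8, the CD30 antigen, was detected on every array of L-540 only. B cell markers were detected for 3, 2, 1 and 1 of 4 genes on the array, T cell markers for 3, 0, 1 and 1 of 4, myeloid markers for 4, 2, 3 and 3 of 5, and stromal or epithelial markers for 1, 0, 0 and 1 of 5. In a misaligned stretch of the deposited signal table, which holds no probe of the 7 genes, the order of export of the arrays could be read, and its first and second parts of 12 arrays each held arrays of all 8 groups. These are called set 1 and set 2, and values from a fit blocked on the set and from each set alone stand beside the results, since no source names the slide of any array. A set holds only 1 or 2 arrays of each group. A call lost within a single set can therefore reflect the smaller number of arrays, and does not by itself show a smaller change.

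Of the 7 genes, CTH and CHAC1 were the 2 whose transcripts rose in the mean of the lines, and the 250 bases before their RefSeq start sites are shown to place these genes in the genome. Both come from the plus strand of GRCh38.p14, CTH from chr1:70411018-70411267 and CHAC1 from chr15:40953221-40953470. Capitals mark TGACGT, the core of the cyclic AMP response element, in CTH at -147 to -142 from the start, and TTGCATCA, the composite C/EBP-ATF element, in CHAC1 at -209 to -202.
CTH: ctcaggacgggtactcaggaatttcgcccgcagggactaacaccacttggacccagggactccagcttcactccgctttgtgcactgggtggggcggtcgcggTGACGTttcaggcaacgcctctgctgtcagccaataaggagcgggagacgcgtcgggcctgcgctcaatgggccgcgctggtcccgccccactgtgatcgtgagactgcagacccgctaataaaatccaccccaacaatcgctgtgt
CHAC1: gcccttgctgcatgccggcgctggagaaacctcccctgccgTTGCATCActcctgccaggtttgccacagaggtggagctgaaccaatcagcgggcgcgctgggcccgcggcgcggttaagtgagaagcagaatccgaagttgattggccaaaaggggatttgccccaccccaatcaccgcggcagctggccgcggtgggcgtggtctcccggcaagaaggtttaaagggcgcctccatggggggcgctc
Each motif was searched on both strands. TTGCATCA was present in 0.772% and TGACGT in 7.1% of 35116 promoters of the same length. The CCAAT box, present in 32%, lay once in CTH (-117 to -113) and at 3 places in CHAC1 (-167 to -163, -107 to -103 on the reverse strand, and -80 to -76). The antioxidant response element TGACNNNGC, present in 10.9%, was found on the reverse strand of GCLM at -34 to -26 and of the first of 3 CBS entries at -83 to -75, while GCLC had a CCAAT box at -134 to -130. No motif overlapped another. These matches describe letters in the window and are not evidence of binding.

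CTH, which encodes cystathionine gamma-lyase, rose in every line. All values below are normalized log2 expression, and changes are AEZS-136 minus control with the standard error of the limma model. Its brightest probe, ILMN_2305112, read 4.57, 4.59 and 4.64 in the KM-H2 controls, none of them detected above background, and 6.08, 6.46 and 6.29 with AEZS-136. The L-428 arrays read 7.38, 7.39 and 7.31 in the control and 9.15, 9.10 and 9.25 with the compound. In both lines the treated arrays lay far above all control arrays. For L-540 the control values were 7.38, 7.43 and 7.27 and the treated values 9.61, 9.56 and 9.46. SUP-HD1 began highest, at 8.87, 8.93 and 8.93, and reached 10.17, 10.21 and 10.08. No treated array overlapped a control array in any line.

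CTH rose by 1.81 (SE 0.0877, 3.5-fold, adjusted p = 3.33e-11) in L-428, by 2.18 (SE 0.0877, 4.54-fold, adjusted p = 9.01e-13) in L-540 and by 1.24 (SE 0.0877, 2.37-fold, adjusted p = 1.02e-08) in SUP-HD1. The KM-H2 control was not detected, so the change there, fitted at 1.68 (adjusted p = 8.21e-11), is given as a bound. It is at least 2.45-fold on the background-corrected scale. This bound is the treated mean over the mean of the lowest level detected on each control array or the probe's own value where higher. The change without that correction was smaller and is given below. Of all tested probes, 6.47% rose in KM-H2, 4.05% in L-428, 5.53% in L-540 and 2.94% in SUP-HD1. Blocked on the set, the 4 changes of CTH were 1.68, 1.81, 2.21 and 1.28. Set 1 alone gave 1.58, 1.79, 2.23 and 1.20, and set 2 alone 1.87, 1.82, 2.21 and 1.31, each of them called. The size of the rise depended on the background correction, since without it the changes were 0.61, 1.37, 1.70 and 1.10, and 0.60, 1.34, 1.61 and 1.05 in the authors' normalized values.

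**Figure D1:**
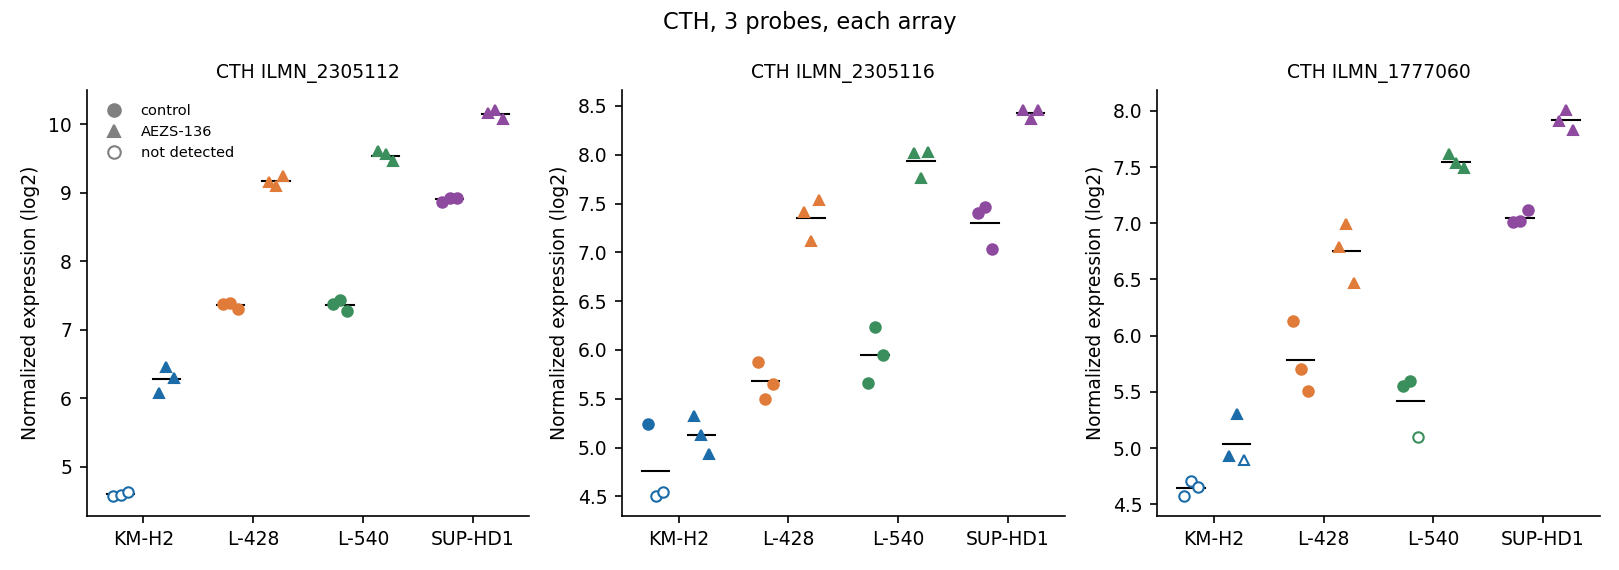
Normalized log2 expression of CTH on each of 24 arrays, 1 panel per probe, by line, with control arrays as circles, AEZS-136 arrays as triangles, group means as lines and arrays on which the probe was not detected as open symbols. With ILMN_2305112 the treated arrays of every line lie above its controls, from 6.08 against 4.64 in KM-H2 to 10.08 against 8.93 in SUP-HD1.

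CTH has 2 further probes, ILMN_2305116, designed like the first on the RefSeq transcript NM_153742, and ILMN_1777060, designed on NM_001902. Both rose in L-428, L-540 and SUP-HD1, by 1.68, 1.98 and 1.14 for ILMN_2305116 (adjusted p = 3.44e-06, 2.25e-07 and 0.000349) and by 0.97, 2.14 and 0.86 for ILMN_1777060 (adjusted p = 0.000319, 7.59e-09 and 0.00105). In each of these comparisons the treated and control arrays were apart. In KM-H2 neither probe passed the test. The control arrays of this line read 5.24, 4.50 and 4.54 with ILMN_2305116, only the first detected, and the treated arrays 5.32, 5.13 and 4.93, a difference of 0.37 (SE 0.184, adjusted p = 0.219). With ILMN_1777060 the KM-H2 arrays read 4.57, 4.71 and 4.65, none detected, against 4.93, 5.30 and 4.89, of which 2 were detected, a difference of 0.40 (SE 0.157, adjusted p = 0.104). The rise of CTH in KM-H2 therefore rests on 1 of 3 probes. Within single sets the rise of ILMN_2305116 lost its call in L-428 in set 1 (1.47, adjusted p = 0.101) and in SUP-HD1 in both (1.0 and 1.16, adjusted p = 0.177 and 0.142). That of ILMN_1777060 lost it in set 2 in L-428 (0.71, adjusted p = 0.112) and SUP-HD1 (0.94, adjusted p = 0.123).

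CBS, the enzyme that precedes CTH in transsulfuration, was near the background. Its probe was detected on 4 of 24 arrays, 1 control and 1 treated array of KM-H2 and 2 treated arrays of L-540. The L-540 controls read 4.44, 5.08 and 4.88, none detected, and the treated arrays 5.75, 4.89 and 5.14. These groups overlapped, and the difference of 0.46 (SE 0.217) had an adjusted p of 0.21. In KM-H2, L-428 and SUP-HD1 the differences were -0.22, 0.32 and 0.01 (adjusted p = 0.623, 0.462 and 0.985), and the mean over the lines was 0.14 (adjusted p = 0.388).

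SLC7A11, the cystine carrier, was detected on 10 of 24 arrays, all of L-540 or SUP-HD1. In L-540 the controls read 5.00, 5.02 and 5.47, with the last detected, and the treated arrays 5.54, 5.74 and 5.50. The groups were apart, but the difference of 0.43 (SE 0.171) did not pass the test (adjusted p = 0.123), though it did without control replicate 3 (0.58, adjusted p = 0.0458). SUP-HD1 controls read 5.65, 5.29 and 5.16 and treated arrays 5.01, 5.40 and 5.59, which overlapped, with a difference of -0.04 (adjusted p = 0.939). The differences of -0.05 in KM-H2 and -0.03 in L-428 are between groups without a detected array. A change of SLC7A11 in these lines was therefore not measurable.

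CHAC1, the intracellular gamma-glutamylcyclotransferase that degrades glutathione, rose in 3 of the 4 lines. It was detected on only 1 of 12 control arrays. In L-428 the controls read 4.52, 4.91 and 4.99, of which the last was detected, and the treated arrays 6.84, 7.15 and 7.25. SUP-HD1 went from 4.51, 4.86 and 4.40, none detected, to 7.09, 7.42 and 7.14. In both lines every treated array was more than 1 log2 unit above every control array. The L-540 controls read 4.44, 4.32 and 4.66, none detected, and the treated arrays 4.69, 5.81 and 5.37, of which the first was not detected either. KM-H2 had no detected array, with controls at 4.56, 4.39 and 4.38 and treated arrays at 4.42, 4.36 and 4.42, which overlapped.

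The rise of CHAC1 was fitted at 2.27 (SE 0.202, 4.83-fold, adjusted p = 2.24e-07) in L-428. Only 1 of 3 control arrays was detected there, so this fold starts near the background. On the background-corrected scale the rise was at least 4.6-fold in SUP-HD1 (fitted change 2.63, adjusted p = 3.32e-08). On that scale it was at least 1.1-fold in L-540 (fitted change 0.82, adjusted p = 0.0102). Both are against controls without detection. The KM-H2 difference was -0.04 (SE 0.202, adjusted p = 0.949). Blocked on the set, the changes in L-428, L-540 and SUP-HD1 were 2.27, 0.74 and 2.55, while set 1 alone gave 2.16, 0.93 and 2.26 and set 2 alone 2.33, 0.31 and 2.97. The L-540 rise was the unstable one. In set 2 it was not called, where its value of 0.31 rests on 1 treated array. It also lost its call without replicate 2 of the treated arrays (0.56, adjusted p = 0.0817). Without background correction the changes were 0.95 in L-428, 0.33 in L-540, under the fold threshold, and 1.14 in SUP-HD1.

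**Figure D2:**
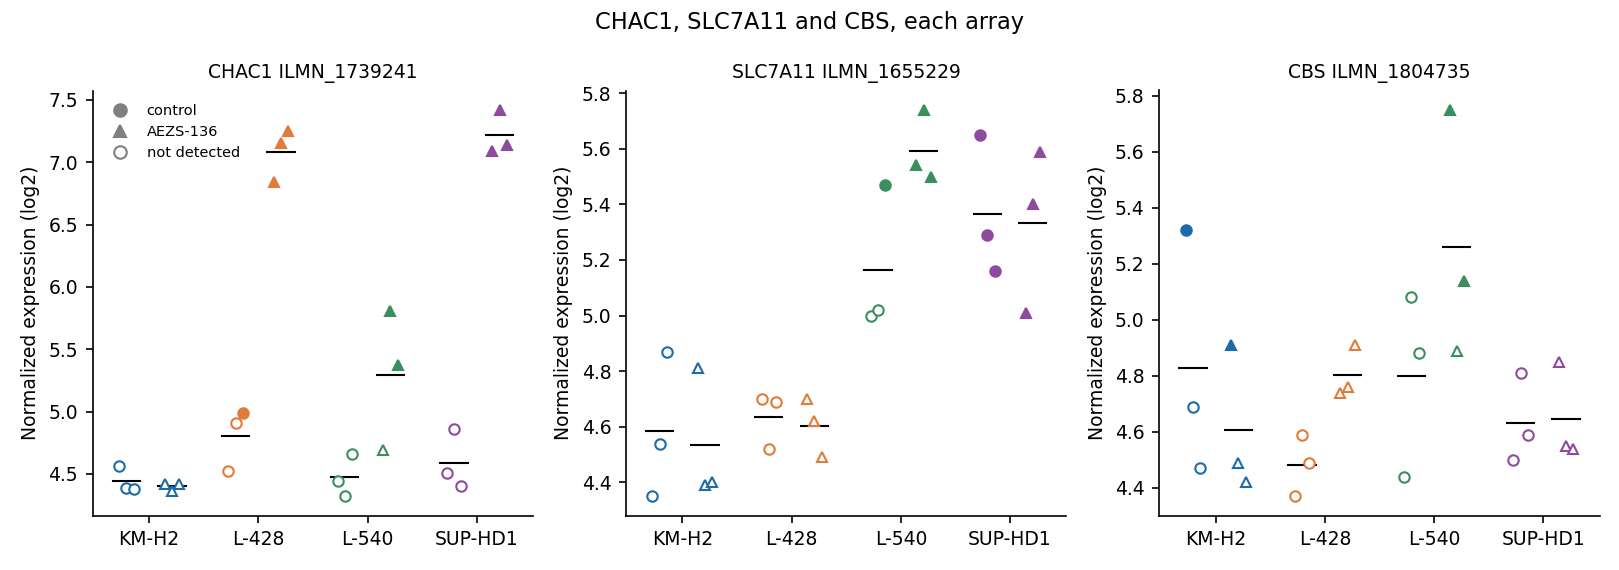
Normalized log2 expression of CHAC1, SLC7A11 and CBS on each array, by line, with control arrays as circles, AEZS-136 arrays as triangles, group means as lines and open symbols where the probe was not detected. CHAC1 lies at 6.84 to 7.42 on the treated arrays of L-428 and SUP-HD1 and at 4.36 to 4.42 on those of KM-H2, while most SLC7A11 and CBS symbols are open.

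GCLC, the catalytic subunit of glutamate-cysteine ligase, was detected on all 24 arrays by ILMN_1730575. KM-H2 controls read 6.79, 6.30 and 6.74 and treated arrays 7.02, 6.92 and 7.33, without overlap, a rise of 0.48 (SE 0.141, 1.4-fold, adjusted p = 0.024). This rise was 0.48 when blocked on the set (adjusted p = 0.022), 0.41 in set 1 alone (adjusted p = 0.14) and 0.63 in set 2 alone (adjusted p = 0.164). It lost its call without replicate 2 of the controls (0.33, adjusted p = 0.156) and without replicate 3 of the treated arrays (0.36, adjusted p = 0.144). Without background correction it was 0.26 and in the authors' values 0.22, both under the fold threshold, and it also lost its call with median scaling (0.66, adjusted p = 0.0541) and with the methods' t-test (adjusted p = 0.267). In the other lines the groups overlapped, with differences of -0.01 in L-428, 0.05 in L-540 and 0.12 in SUP-HD1 (adjusted p = 0.991, 0.904 and 0.723). L-428 controls read 7.33, 7.44 and 7.28 against 7.30, 7.58 and 7.14, and the L-540 controls 7.07, 7.15 and 6.75 against 7.02, 7.02 and 7.08. The second GCLC probe, ILMN_2215194, was detected on 0 of 24 arrays and was not tested.

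GCLM, the modifier subunit, was detected on all arrays by both of its probes. The dimmer one, ILMN_2225974, fell in L-428 and SUP-HD1. The L-428 controls read 7.33, 7.12 and 7.23 and the treated arrays 6.83, 6.75 and 6.70, a fall of 0.47 on the log2 scale (-0.47, SE 0.124, adjusted p = 0.0194). SUP-HD1 controls read 7.27, 7.05 and 7.10 and treated arrays 6.56, 6.67 and 6.64, a change of -0.52 (SE 0.124, adjusted p = 0.0104). Treated and control arrays were apart in both lines. Of all tested probes, 4.75% fell in KM-H2, 3.22% in L-428, 3.53% in L-540 and 3.6% in SUP-HD1. The differences in KM-H2 and L-540 were 0.10 and -0.01 (adjusted p = 0.736 and 0.977).

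With the brighter GCLM probe, ILMN_1788547, L-428 controls read 9.32, 9.21 and 9.07 and treated arrays 8.77, 8.84 and 8.88. The groups were apart, and the difference of -0.37 (SE 0.0973, adjusted p = 0.0181) stayed under the fold threshold of 0.4, which it passed without control replicate 3 (-0.43, adjusted p = 0.0139). The differences in KM-H2, L-540 and SUP-HD1 were -0.18, -0.17 and -0.28 (adjusted p = 0.268, 0.321 and 0.0787), and the mean over the lines was -0.25 (SE 0.0486, adjusted p = 0.000495), also under that threshold. This probe had the higher mean and stood for GCLM in the counts of genes. The 2 called changes of ILMN_2225974 were -0.47 and -0.53 when blocked on the set. They were -0.47 and -0.46 in set 1 alone and -0.47 and -0.52 in set 2 alone. Neither was called within a set, where a group has 1 or 2 arrays, although the sizes were close to those of all arrays. The L-428 call was also lost without control replicate 1 (-0.42, adjusted p = 0.0834), treated replicate 2 (-0.47, adjusted p = 0.056) or treated replicate 3 (-0.44, adjusted p = 0.073), and the SUP-HD1 call without control replicate 1 (-0.46, adjusted p = 0.0587). Both fell under the fold threshold without background correction (-0.27 and -0.29) and in the authors' values (-0.26 and -0.28), and both lost their call with median scaling (adjusted p = 0.141 and 0.361) and with the methods' t-test (adjusted p = 0.0814 and 0.0597).

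GSS, glutathione synthetase, was detected on every array and had no call. In L-540 its controls read 9.27, 9.21 and 9.19 and the treated arrays 9.22, 9.23 and 9.22, a difference of 0.00 (SE 0.0977, adjusted p = 0.994). SUP-HD1 controls read 8.63, 8.54 and 8.83 and treated arrays 8.90, 8.83 and 8.94, a difference of 0.22 (SE 0.0977, adjusted p = 0.19). The SUP-HD1 groups met at 8.83, while the treated arrays of L-540 lay within the range of its controls. The differences in KM-H2 and L-428 were -0.12 and 0.00 (adjusted p = 0.511 and 0.999).

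**Figure D3:**
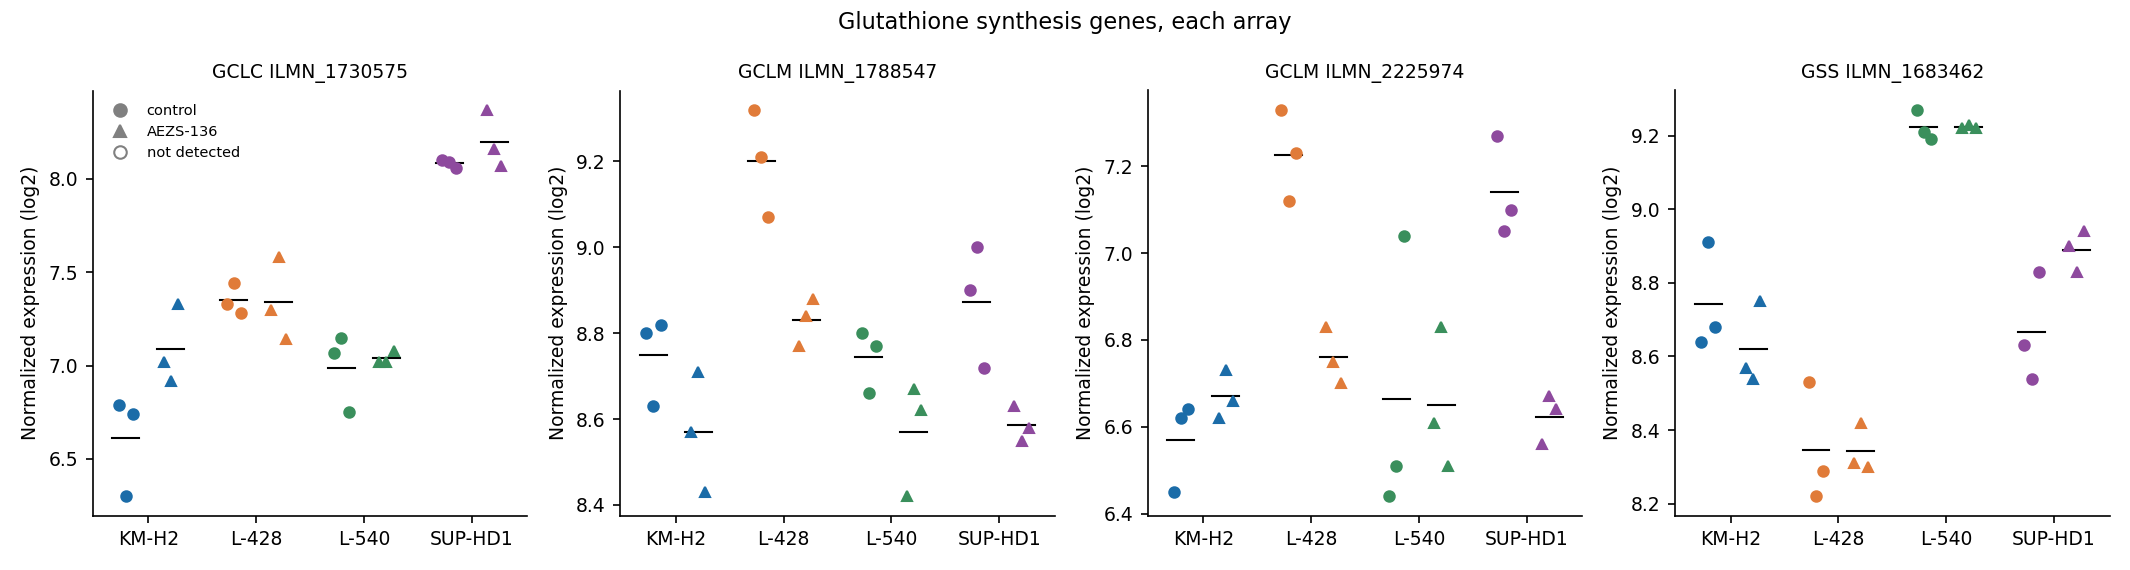
Normalized log2 expression of GCLC, of both GCLM probes and of GSS on each array, by line, with control arrays as circles, AEZS-136 arrays as triangles and group means as lines. Vertical axes differ between panels. GCLC is highest in SUP-HD1 (control mean 8.09), GSS in L-540 (9.22), and the treated arrays of GCLM lie below the controls in L-428 and SUP-HD1.

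Counted by gene with the brightest probe of each, 2 of the 7 genes rose and 0 fell in every line, CTH and GCLC in KM-H2 and CTH and CHAC1 in L-428, L-540 and SUP-HD1. Over all tested probes 6.47, 4.05, 5.53 and 2.94% rose and 4.75, 3.22, 3.53 and 3.6% fell in the 4 lines. A fall could hardly be measured for CHAC1, detected on 1 control array of L-428, or for CBS, on 1 of KM-H2. The same holds for SLC7A11 in KM-H2 and L-428, where no control array was detected. The median change of the 7 genes was -0.05 in KM-H2, 0.00 in L-428, 0.43 in L-540 and 0.12 in SUP-HD1, against -0.01, -0.01, -0.01 and 0.01 over all kept probes. In KM-H2 and L-540 this median is the value of SLC7A11, which was not called in either line. SLC7A11 had no detected array in KM-H2 and 1 of 3 controls detected in L-540, so the L-540 median does not show a rise of the set. In the mean of the 4 lines, CTH rose by a fitted 1.73 (SE 0.0438, 3.31-fold) and CHAC1 by a fitted 1.42 (SE 0.101, adjusted p = 1.29e-09). Both means include undetected groups, for CTH the KM-H2 controls. Again 2 genes rose and 0 fell, where 4.22% of all tested probes rose and 2.47% fell in the mean. Blocked on the set, the mean changes of CTH and CHAC1 were 1.74 and 1.38, against 1.70 and 1.32 in set 1 alone and 1.80 and 1.39 in set 2 alone. Without background correction they were 1.20 and 0.60, and in the authors' values 1.15 and 0.59. The other CTH probes, ILMN_2305116 and ILMN_1777060, rose by 1.29 and 1.09 in the mean. The SLC7A11, CBS, GCLC and GSS means were 0.08, 0.14, 0.16 and 0.03 (adjusted p = 0.587, 0.388, 0.113 and 0.765).

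**Figure D4:**
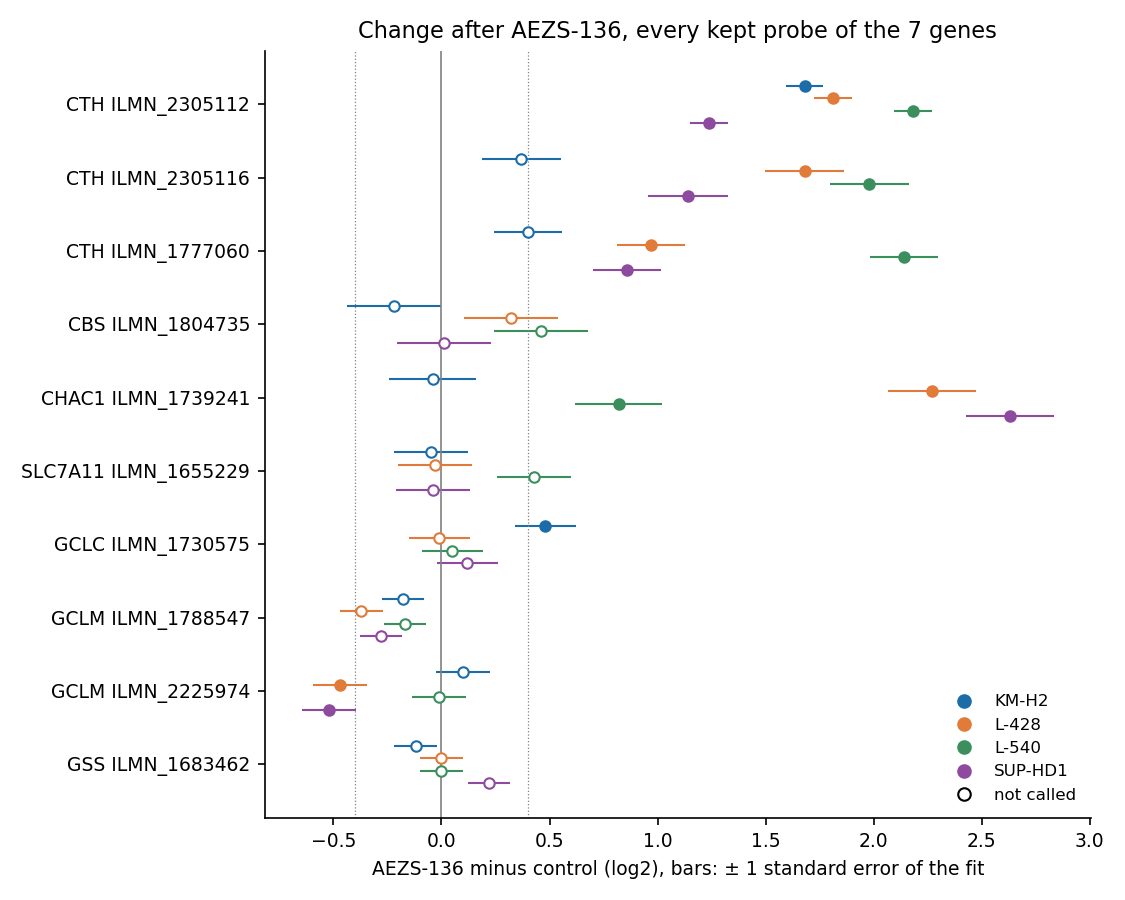
Change in log2 expression, AEZS-136 minus control, of the 10 tested probes in each line, with bars of 1 standard error, filled points where the probe passed the test and dotted lines at a change of 0.4 in either direction. CTH lies to the right in all lines (1.24 to 2.18 with ILMN_2305112) and CHAC1 in L-428 and SUP-HD1 (2.27 and 2.63), while the other genes lie between -0.52 and 0.48.

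Between the classes of the study, the mean change in KM-H2 and L-428 was compared with that in L-540 and SUP-HD1. None of the 7 genes, by its brightest probe, differed at the thresholds, where 2.1% of all tested probes did. For CTH the difference was 0.03 (SE 0.0877, adjusted p = 0.928) with ILMN_2305112. This value depended on the background correction, being -0.41 without it (adjusted p = 9.1e-05, called) and -0.36 in the authors' normalized values (adjusted p = 0.000631, under the fold threshold). The same difference was -0.82 (SE 0.157, adjusted p = 0.00616) with ILMN_1777060. That probe rose by 2.14 in L-540 and by 0.86 in SUP-HD1. In L-428 it rose by 0.97, and in KM-H2 its change of 0.40 was not called. Each class has only 2 lines, and the p-values of this comparison cover variation among arrays, not among lines. They therefore do not extend to resistant and sensitive lines in general. The CHAC1 difference was -0.61 (SE 0.202, adjusted p = 0.126), and -0.76 without treated replicate 1 of L-540 (adjusted p = 0.0146, called). In the class comparison the value of ILMN_1777060 was -0.87 when blocked on the set, -0.74 in set 1 alone (adjusted p = 0.137) and -0.84 in set 2 alone (adjusted p = 0.33).

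Lines were also compared in pairs, with p-values adjusted over 6 pairs and all kept probes together. Of 42 differences of change, 6 for each gene, 7 passed, 3 for CTH and 4 for CHAC1, where 2.79% passed over all probes. The change of CTH was larger in L-540 than in SUP-HD1 by 0.94 (SE 0.124, adjusted p = 0.000153). With median scaling this was 0.97 and not called (adjusted p = 0.0648). For this pair ILMN_2305116 gave 0.85 (adjusted p = 0.0921, not called) and ILMN_1777060 gave 1.27 (adjusted p = 0.0024, called). With ILMN_2305112 the change was also larger in L-428 than in SUP-HD1 by 0.56 (adjusted p = 0.015). That difference lost its call without background correction (0.27, adjusted p = 0.0856) and in the authors' values (0.29, adjusted p = 0.0714). The difference of -0.50 between KM-H2 and L-540 (adjusted p = 0.0295) starts from undetected KM-H2 controls, and it lost its call when any of 7 single arrays was left out, 4 of KM-H2 and 3 of L-540 (-0.41 to -0.51). Without background correction it was -1.09 and in the authors' values -1.01, and there KM-H2 minus SUP-HD1, which was 0.43 and not called, took the opposite sign (-0.49 and -0.45, called). Without treated replicate 1 of KM-H2 that difference was 0.53 (adjusted p = 0.0183, called). The CTH differences that involve KM-H2 thus have no settled size. The other 3 pairs did not pass for CTH. No control array of L-540 or SUP-HD1 detected CHAC1 and 1 of L-428 did, so the fitted differences are not measured sizes. They were 1.46 for L-428 minus L-540 (SE 0.286, adjusted p = 0.00656) and -1.81 for L-540 minus SUP-HD1 (adjusted p = 0.000976). KM-H2, without detection, differed in its change by -2.32 from L-428 (adjusted p = 7.16e-05) and by -2.67 from SUP-HD1 (adjusted p = 1.45e-05). In the order given here, the CTH differences were 0.94, 0.53 and -0.54 when blocked on the set, and those of CHAC1 1.53, -1.81, -2.32 and -2.60, all called. Within a single set none of the 7 passed, where 22 differences over all probes did in set 1 and 0 in set 2.

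Of 42 differences in control level between lines, 18 passed the test, where 46.4% did over all probes. CTH was lowest in KM-H2 at 4.60 ± 0.032 (SD, n = 3), not detected, followed by L-428 at 7.36 ± 0.047 and L-540 at 7.36 ± 0.081, which did not differ beyond their spread (0.00, adjusted p = 0.992), and SUP-HD1 at 8.91 ± 0.035. L-428 minus SUP-HD1 was -1.55 (adjusted p = 2.36e-12). Against KM-H2, CTH was at least 5.19-fold higher in L-428, 5.2-fold in L-540 and 15.2-fold in SUP-HD1 on the background-corrected scale. Without the correction KM-H2 minus these lines was -1.20, -1.20 and -2.35 on the log2 scale, and -1.16, -1.19 and -2.29 in the authors' values, all called but smaller than these folds. Blocked on the set, the L-428 difference from SUP-HD1 was -1.55, and it was -1.62 in set 1 alone and -1.51 in set 2 alone. All 3 CTH probes placed SUP-HD1 highest and KM-H2 lowest, and none separated L-428 from L-540 (-0.28 and 0.37 with the other probes, adjusted p = 0.232 and 0.0564).

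In control level GCLC ranked from KM-H2 at 6.61 ± 0.27 (SD, n = 3) through L-540 at 6.99 ± 0.21 and L-428 at 7.35 ± 0.084 to SUP-HD1 at 8.09 ± 0.02. L-428 minus SUP-HD1 was -0.74 (adjusted p = 0.000141), also -0.74 when blocked on the set, -0.81 in set 1 alone and -0.70 in set 2 alone. The steps below it, -0.38 between KM-H2 and L-540 and 0.36 between L-428 and L-540 (adjusted p = 0.028 and 0.0402), stayed under the fold threshold. GCLM was highest in L-428, at 9.20 ± 0.12 with ILMN_1788547, above L-540 by 0.46 (adjusted p = 0.000399) and above KM-H2 by 0.45 (-0.45 for KM-H2 minus L-428, adjusted p = 0.000484). The latter was -0.39 without KM-H2 replicate 2 and without L-428 replicate 1, which put it under the fold threshold. Within set 1 both GCLM differences failed the test (0.31 and -0.26, adjusted p = 0.136 and 0.14). Both also lost their call without background correction, and the difference from L-540 lost it in the authors' values. The dimmer GCLM probe gave 7.23 ± 0.11 in L-428, 7.14 ± 0.11 in SUP-HD1, 6.66 ± 0.33 in L-540 and 6.57 ± 0.11 in KM-H2, where neither the upper pair nor the lower pair differed (adjusted p = 0.609 and 0.597). Its difference of -0.48 between L-540 and SUP-HD1 was -0.37 without L-540 replicate 1 and -0.02 in set 1 alone. All called differences of the dimmer probe lost their call without background correction and in the authors' values.

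GSS was highest in L-540 at 9.22 ± 0.042 (SD, n = 3), above KM-H2 at 8.74 ± 0.15 by 0.48 (-0.48 for KM-H2 minus L-540, adjusted p = 0.000284), above SUP-HD1 at 8.67 ± 0.15 by 0.55 (adjusted p = 5.78e-05) and above L-428 at 8.34 ± 0.16 by 0.88 (-0.88 for L-428 minus L-540, adjusted p = 1.22e-07). KM-H2 and SUP-HD1 did not differ beyond their spread (0.07, adjusted p = 0.572). In the order KM-H2, SUP-HD1 and L-428, the differences of L-540 from the others were -0.47, 0.55 and -0.88 when blocked on the set, -0.53, 0.65 and -0.90 in set 1 alone and -0.32 (adjusted p = 0.191), 0.50 and -0.86 in set 2 alone. SLC7A11 read 5.17 ± 0.26 in L-540 and 5.37 ± 0.26 in SUP-HD1 and was not detected in the controls of KM-H2 (4.59) and L-428 (4.64). Against these lines, on the background-corrected scale, SUP-HD1 had at least 1.31-fold and 1.26-fold more. L-540 had at least 1.13-fold and 1.1-fold more, where 1 of 3 controls was detected. Without that array, L-540 replicate 3, both L-540 differences lost their call (-0.43 and -0.38, adjusted p = 0.0531 and 0.0895). Both SUP-HD1 differences lost theirs in set 1 alone (adjusted p = 0.108 and 0.21), without background correction (-0.30 and -0.25) and in the authors' values (-0.30 and -0.25), as did both L-540 differences. For CBS and CHAC1, detected on 1 control array each, 0 of the 12 differences passed. The marker genes of other cell types also differed in number between the lines, and their part in these differences was not tested.

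Of 64 other measured genes of cysteine and glutathione metabolism and its regulation, 9 rose and 3 fell in KM-H2. The numbers were 8 and 3 in L-428, 7 and 5 in L-540, 8 and 6 in SUP-HD1, and 8 and 3 in the mean. Of all tested probes, 6.47, 4.05, 5.53 and 2.94% rose in the 4 lines and 4.22% in the mean. The shares that fell were 4.75, 3.22, 3.53, 3.6 and 2.47%. Of the 64 genes, 12 were transcription factors and their partners, which made up 6, 6, 5, 6 and 6 of the rises. Within these lists the rises were therefore mostly of regulators. The lists were chosen with earlier results of these data known, so this does not compare regulators with metabolic genes in general. Among 8 genes of the methionine cycle, which supplies the homocysteine used by CBS, MAT2A, the synthetase of S-adenosylmethionine, changed by -0.94, -0.77, -0.72 and -1.09 in the 4 lines (mean -0.88, SE 0.0446, adjusted p = 6.24e-12). MTRR, which reactivates methionine synthase, rose by 0.49 in the mean (adjusted p = 2.48e-06), though it was not called in L-428 (0.27). Its other probe gave a mean of 0.38, under the fold threshold of 0.4. Of 6 transport genes SLC3A2, the heavy chain that pairs with SLC7A11, rose by 0.41 in the mean (SE 0.0505, adjusted p = 3.09e-06), with 0.62, 0.21, 0.29 and 0.50 in the single lines, and by 0.72 with its other probe.

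CHAC2, the constitutive relative of CHAC1, went the other way. It fell in all lines, with -1.0, -0.95, -0.83 and -0.86 (mean -0.91, SE 0.0741, adjusted p = 9.02e-09), and was the only call among 7 genes of the gamma-glutamyl cycle. GLRX, glutaredoxin, had a mean change of -0.63 (adjusted p = 3.97e-10) and was the only call in the mean among 9 genes of glutathione reduction and the peroxidases. Of 14 glutathione transferases and glyoxalases and of 8 genes of cysteine and sulfide breakdown, 0 were called in the mean. MGST2, a microsomal transferase, fell in L-428 and L-540 (-0.40 and -0.42). SUOX, sulfite oxidase, rose in L-428 (0.63) and fell in L-540 (-0.48), and CSAD, which leads cysteine towards taurine, rose in KM-H2 and L-540 (0.41 and 0.40). Among 12 transcription factors and partners that regulate them, such as KEAP1 and TRIB3, 6 rose and 0 fell in the mean, led by DDIT3 (2.50), ATF3 (1.25) and ATF4 (1.08), all of the amino acid and stress response. Other probes of ATF4 gave -0.22 and 1.27 and that of ATF3 gave 0.38. Not every gene of the list rose, and TRIB3 and NUPR1 had means of -0.05 each, neither called.

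**Figure D5:**
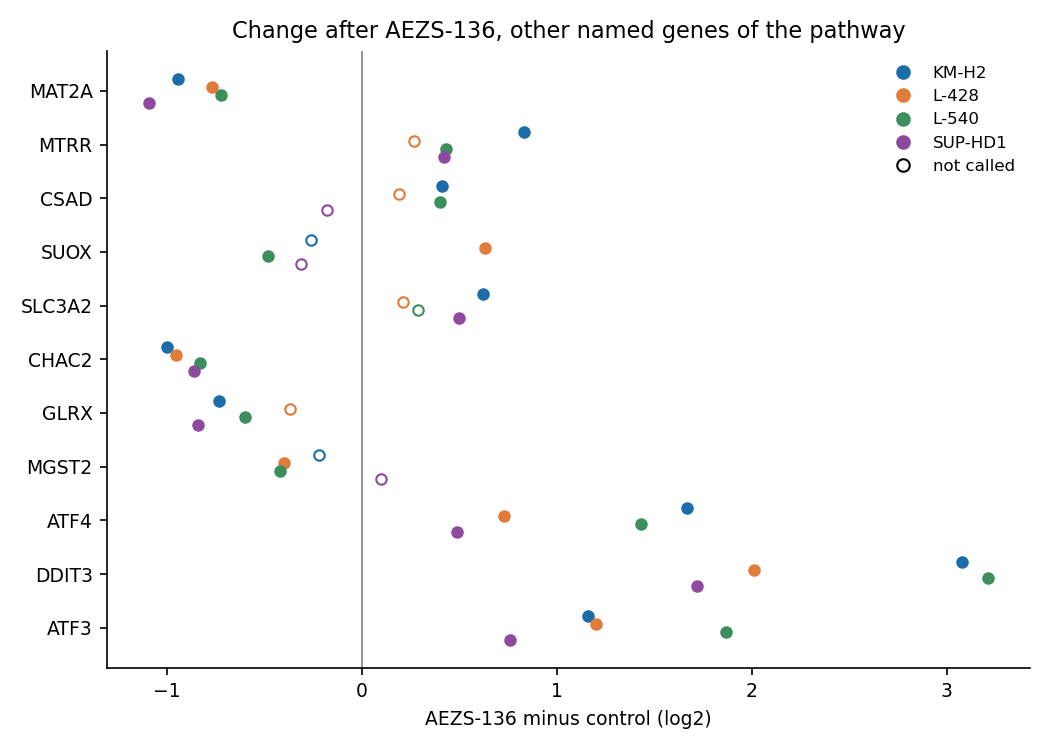
Change in log2 expression, AEZS-136 minus control, of other named genes of the pathway in each line, with filled points where the probe passed the test. MAT2A and CHAC2 lie to the left in all lines (-0.72 to -1.09), and ATF4, DDIT3 and ATF3 to the right (0.49 to 3.21).

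The genes with changes most like those of CTH were sought among 9976 genes detected in every line, by the root mean square difference of the 4 changes. They were EPB41L4A-AS1, a noncoding transcript (0.123, with 1.62, 1.82, 1.98 and 1.11 in the 4 lines), SNHG15, a host of small nucleolar RNA (0.166), and HNRNPDL, an RNA-binding protein (0.239). Nearest to CHAC1 among 9977 were TSC22D3, a leucine zipper protein induced by glucocorticoids (0.719), SESN2, a stress-induced inhibitor of mTORC1 signalling (0.806), and LSMEM1 (0.939). Genes without detection in a line were left out beforehand, although CHAC1 itself was not detected in KM-H2. A closer gene of that kind could not be found, so these distances cannot be compared with those of CTH. TSC22D3 changed by 0.42 in KM-H2, where CHAC1 was not detected, and by 1.36, 0.95 and 1.63 in the other lines. These distances describe 4 values a gene and carry no test.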

How the data were processed

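Total RNA of 4 Hodgkin lymphoma cell lines, treated for 2 h with 10 µM AEZS-136 or control, was hybridized to 24 Illumina bead arrays. The sample labels gave 8 groups of 3. The authors deposited a table of mean bead intensity per probe on a linear scale, made in BeadStudio (version not given in the sources used here) without normalization, with a detection p-value in complement form beside each intensity. They also deposited log2 values of the same probes after robust spline normalization in lumi, which served only as an alternative. Of 47323 probes, 3270 were out of register in the intensity table, none of them of the 7 genes, and were left out.

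Intensities were background corrected and quantile normalized with neqc (offset 16) in limma 3.58.1 under R 4.3.3, and a probe entered the tests if its detection p was under 0.05 on 3 or more arrays. One model with a coefficient per group used all 24 arrays (lmFit, eBayes). Adjusted p-values are from this limma test with Benjamini-Hochberg adjustment over all kept probes, and the 6 pairs of lines were adjusted as 1 family. Following the study's methods, a call needed both an adjusted p under 0.05 and a log2 change of more than 0.4 in either direction. The number of arrays limits the precision.

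A gene was counted by its kept probe with the highest mean. Named were all 7 genes, of each pathway list up to 3 genes with the largest mean change among those called in the mean or in at least 2 lines, and the 3 genes most like each of CTH and CHAC1. The 7 genes, the lists and the rules were chosen with earlier results of these data known. Symbols came from the platform annotation (1 symbol for 30113 probes), with 30074 Entrez IDs found in the RefSeq table of GRCh38.p14, and promoters from RefSeq, with entries for 5 of the 7 genes (named only: SLC7A11, GSS). Alternatives were no background correction, median scaling, the authors' log2 values, other probe filters, any probe of a gene, the export set or replicate number as a block, each export set alone, each line alone, the methods' t-test and the omission of each array.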

Additional observations from a re-analysis of the deposited data

Results flagged for a closer look

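Several changes of CTH and CHAC1 differed between lines by a test of the difference itself, adjusted over all probes and all 6 pairs of lines. For CTH with ILMN_2305112 the change in KM-H2 minus that in L-540 was -0.50 (SE 0.124, adjusted p = 0.0295), in L-428 minus SUP-HD1 0.56 (adjusted p = 0.015) and in L-540 minus SUP-HD1 0.94 (adjusted p = 0.000153). The first of these lost its call when any of 7 single arrays was left out, with values from -0.41 to -0.51 there (KM-H2 control replicates 2 and 3, KM-H2 AEZS-136 replicates 1 and 3, L-540 control replicate 3, L-540 AEZS-136 replicates 1 and 2). Under median scaling the 3 differences were -0.44, 0.32 and 0.97, none of them called. Without background correction they were -1.09, 0.27 and 0.60, and in the authors' values -1.01, 0.29 and 0.56, with the second not called in either.

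For CTH with ILMN_2305116 the differences of KM-H2 from L-428 and L-540 were -1.31 (SE 0.261, adjusted p = 0.00728) and -1.61 (adjusted p = 0.00122). With ILMN_1777060, L-540 stood apart, by -1.74 from KM-H2 (SE 0.222, adjusted p = 9.88e-05), -1.17 from L-428 (adjusted p = 0.00496) and 1.27 over SUP-HD1 (adjusted p = 0.0024). The classes differed by -0.82 with this probe (SE 0.157, adjusted p = 0.00616), but each holds only 2 lines. That p-value covers variation among arrays, not among lines. The change was 0.86 in the sensitive SUP-HD1 and 0.97 in the resistant L-428. The KM-H2 controls were not detected by ILMN_1777060 and on 1 of 3 arrays by ILMN_2305116, so the KM-H2 differences start near the background.

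For CHAC1 the differences were -2.32 between KM-H2 and L-428 (SE 0.286, adjusted p = 7.16e-05), -2.67 between KM-H2 and SUP-HD1 (adjusted p = 1.45e-05), 1.46 between L-428 and L-540 (adjusted p = 0.00656) and -1.81 between L-540 and SUP-HD1 (adjusted p = 0.000976). CHAC1 was not detected on any KM-H2 array or on any control array of L-540 and SUP-HD1, and on 1 control array of L-428, so that the size of these differences was not measured. Within set 1 of the exported arrays the only one of these 13 differences that passed was that of ILMN_1777060 between KM-H2 and L-540 (-2.12, adjusted p = 0.0307), and within set 2 none did.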

How the results depend on the processing

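No called value of a probe reversed its direction under any alternative, but the CTH difference of change between KM-H2 and SUP-HD1, not called, did (0.43, against -0.49 without background correction and -0.45 in the authors' values). Over 65 called values, 2128 alternative values were computed, of which 2006 kept the call and 122 lost it, 19 of them on leaving out a single array. In the counts of the 7 genes called, KM-H2 went from 2 to 1 without background correction, with median scaling, with the authors' values, with probes detected on all arrays, in either export set, in the line alone and with the methods' t-test. L-540 went from 2 to 1 without background correction, with the authors' values, in set 2, in the line alone and with the t-test. A filter on detection on all arrays leaves out CTH, CHAC1, SLC7A11 and CBS, so that 0 genes were called in L-428, L-540, SUP-HD1 and the mean. Between classes 0 genes became 1, CTH, without background correction (-0.41 with ILMN_2305112) and when any probe counted. With any probe counting, L-428 and SUP-HD1 each went from 2 to 3. The 7 pairwise differences of change became 4 with median scaling and 0 with the filter on all arrays or in either set alone, and the 18 differences of control level became 11 with the authors' values or in set 1, 12 without background correction and 9 with the filter on all arrays. Leaving out each array gave 1 to 2 genes in KM-H2, 2 to 3 in L-428, 1 to 3 in L-540, 2 to 2 in SUP-HD1 and in the mean, 0 to 1 between classes, 6 to 7 pairwise differences of change and 17 to 20 of control level. The count between classes became 1 on leaving out treated replicate 1 of L-540, and that in L-540 became 1 on leaving out treated replicate 2. The KM-H2 count became 1 on leaving out control replicate 2 or treated replicate 3.

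Over all probes, calls in the 4 lines numbered 2758, 1788, 2227 and 1608 in the main setting, 1275, 773, 985 and 720 without background correction, 1173, 721, 925 and 664 with the authors' values, 1872, 658, 1123 and 562 with median scaling and 1143, 303, 526 and 468 with the methods' t-test. Each line alone gave 2565, 949, 1279 and 963, set 1 alone 2088, 137, 1613 and 149, and set 2 alone 130, 402, 314 and 114. With the filter on all arrays L-540 had 1450. In the mean 1645 became 563 and 521 without background correction and with the authors' values, and 1043 with the filter on all arrays. Between classes 515 became 238, 211, 81, 325, 2 and 0 without background correction, with the authors' values, with median scaling, with the filter, and in set 1 and set 2, and the 4116 pairwise differences of change became 648 with median scaling, 22 and 0 in the sets. The 68441 of control level became 41176 with the filter. Rises made up 57.7, 55.7, 61, 44.9 and 63 percent of the calls in the 4 lines and the mean, and 88.5, 46, 82.6, 71.7 and 79.7 percent with median scaling. The cause of these differences was not tested. Dim probes (CTH in KM-H2, CHAC1, SLC7A11, CBS) limit what could be measured.

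With the replicate block, the member counts were 2, 2, 2, 2 and 2 in the lines and the mean and 0, 7 and 18 in the comparisons of classes and pairs, and no call of a gene changed. The block gave 2754, 1758, 2215 and 1581 probes in the lines. The labels share replicate numbers across groups, and the deviations of same-numbered arrays correlated between -0.178 and 0.096 over 12 pairs. A treated array was most like the control of its own number exactly where the pair shared an export set. This held for every array of KM-H2 and for none of SUP-HD1. Pairing by number can therefore not be told apart from the export set, and whether the numbers pair the arrays is not settled.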
